A study of Mus musculus with 12 samples.

Results

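The colony-stimulating factors (CSFs) and their receptors were followed as 9 genes out of the 55487 in each count table. They were chosen by symbol: the ligand genes Csf1 (M-CSF), Il34, Csf2 (GM-CSF) and Csf3 (G-CSF), and the receptor genes Csf1r, Csf2ra, Csf2rb, Csf2rb2 and Csf3r. RNA-seq counts came from 12 libraries of C57BL/6 mouse limb cells, labelled with an age of 8 weeks. Bone marrow-derived macrophages (BMMs), grown from leg marrow of female mice in the presence of M-CSF protein, were sequenced after ovariectomy (OVX, 3 libraries), which removes the ovaries as a model of estrogen loss, or after a sham operation (sham, 3 libraries). Mesenchymal stem cells (MSCs), the plastic-adherent stromal cells of the marrow, were sequenced alone (MSC, 2 libraries), after co-culture with RAW264.7 cells (MSC_RAW, 2 libraries) and after co-culture with RAW264.7 cells stimulated with lipopolysaccharide (MSC_RAW_LPS, 2 libraries). RAW264.7 is a mouse macrophage-like leukemia line, and lipopolysaccharide (LPS) is a bacterial cell wall component. The methods describe inserts that separate the cultures by a membrane, but the labels do not say so for these libraries, so RNA of RAW264.7 cells may be among what was read.

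CSFs are secreted proteins that keep myeloid cells alive and direct their growth. CSF1 and IL-34 share the receptor tyrosine kinase CSF1R, on which macrophages and their bone-resorbing relatives, the osteoclasts, depend. GM-CSF binds a receptor made of a specific chain, encoded by Csf2ra, and a signaling chain shared with IL-3 and IL-5, encoded by Csf2rb. Mice carry a second copy of that chain, Csf2rb2, which serves IL-3. G-CSF acts through CSF3R on neutrophils and their progenitors. In marrow, stromal cells are a known source of CSF1, and stromal and endothelial cells release GM-CSF and G-CSF when inflammatory cytokines or bacterial products reach them.

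Library totals ran from 17012923 to 45367105 counts. Levels are CPM, the counts of a gene per 1e6 counts of the library, scaled by the TMM method within each table, and are also given per kilobase of exon (CPM per kb) where genes are compared with each other. Sham replicates 2 and 3 were nearly identical, as were both MSC_RAW libraries. The ratio of their squared count differences to those of Poisson sampling was 2.50 at low and 2.70 at high counts for the sham pair, and 3.08 and 3.18 for the MSC_RAW pair. In the other within-group pairs the ratio reached 15.1 to 75.5 at high counts. The sham pair and the MSC_RAW pair were therefore each summed to 1 sample, which left n = 2 for sham and n = 1 for MSC_RAW. The MSC_RAW libraries, called a and b here because they carry the same name in the deposited counts, detected fewer genes (19751 and 19657) than the other 4 libraries of the MSC experiment (22068 to 24876). In the fit, the single MSC_RAW sample was assumed to vary like the MSC and MSC_RAW_LPS groups. The labels do not say whether libraries of a group came from separate animals or cultures, so p-values measure only the spread between these libraries.

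Marker genes showed more than the labelled cell type in both experiments. All 16 macrophage markers were above 1 CPM in every library, the MSC libraries included, where Lyz2 (lysozyme) lay at 21597 to 21688 CPM and Adgre1 (F4/80) at 511 to 584 CPM. Stromal transcripts were read in the BMM libraries as well, with Col1a1 (collagen I) at 1903 to 2052 CPM and, in the table normalized apart from it, at 453 to 459 CPM in MSC. The summed macrophage markers ran from 59639 to 64593 CPM in sham, 43803 to 49160 in OVX, 29122 to 29714 in MSC, 36444 to 36970 in MSC_RAW and 15276 to 16095 in MSC_RAW_LPS. In bulk RNA, fewer cells of a type and less RNA per cell cannot be told apart. What these markers contribute to the CSF results was not tested.

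**Figure D1:**
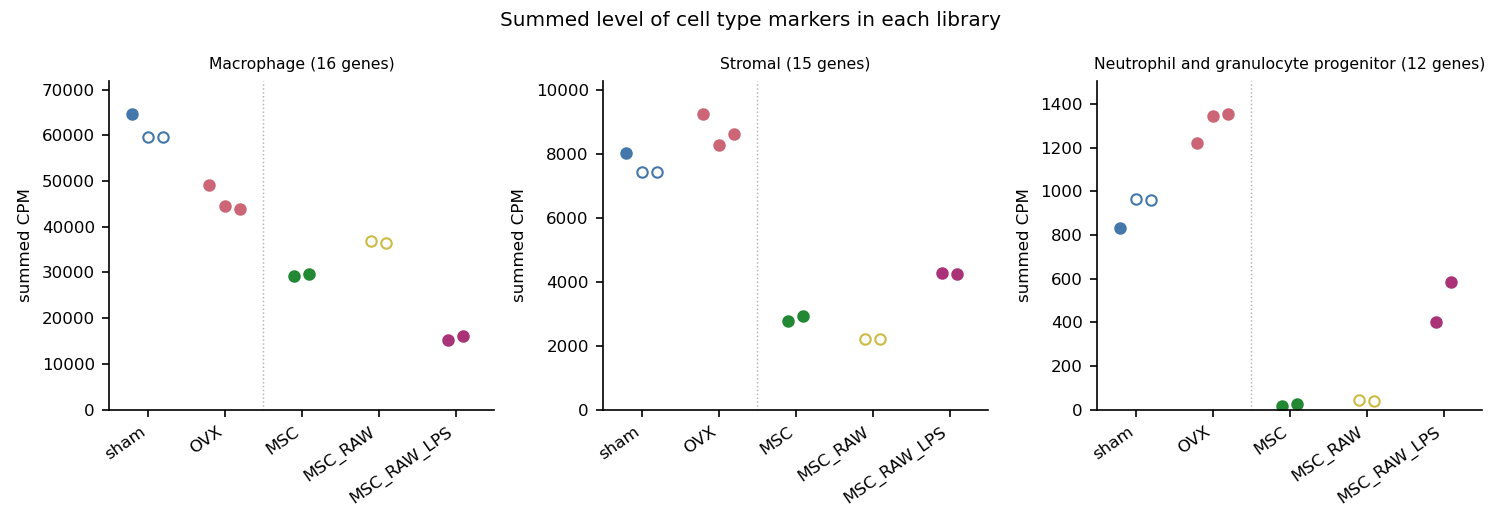
Summed CPM of the macrophage, stromal and neutrophil marker genes in each library, by group. Open points are the near-identical pairs counted as 1 sample, and the dotted line separates the 2 count tables, which were normalized apart. The macrophage sum was lowest in the MSC_RAW_LPS libraries, at 15276 and 16095 CPM.

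Per kilobase of exon, Csf1r stood first among the 9 genes in 4 of the 5 groups, and Csf1 stood first in MSC_RAW_LPS. Csf1r had a mean of 184 CPM per kb in sham, 163 in OVX, 192 in MSC, 332 in MSC_RAW and 131 in MSC_RAW_LPS. The last value was below the 159 ± 11.5 CPM per kb of Csf1 (SD, n = 2), although the libraries of that group were close, at 120 and 142 CPM per kb for Csf1r and 151 and 167 for Csf1. Csf1 was second in the remaining groups, at 43.4 to 87.1 CPM per kb, and Csf2ra followed, at 20.2 to 28.3. Below these, Csf3r (8.66 to 16.9 CPM per kb outside MSC_RAW_LPS) and Csf2rb (8.11 to 18.1) were neighbors whose order differed between groups. Il34 and Csf2rb2 followed at 3.04 to 9.48 CPM per kb, and Csf3 and Csf2 were last, under 1 CPM per kb. MSC_RAW_LPS broke this order: Csf3 ranked 3 with 101 ± 8.99 and Csf2 ranked 4 with 57.2 ± 1.03 CPM per kb (SD, n = 2), above every receptor but Csf1r. No test was made between the BMM and MSC tables.

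**Figure D2:**
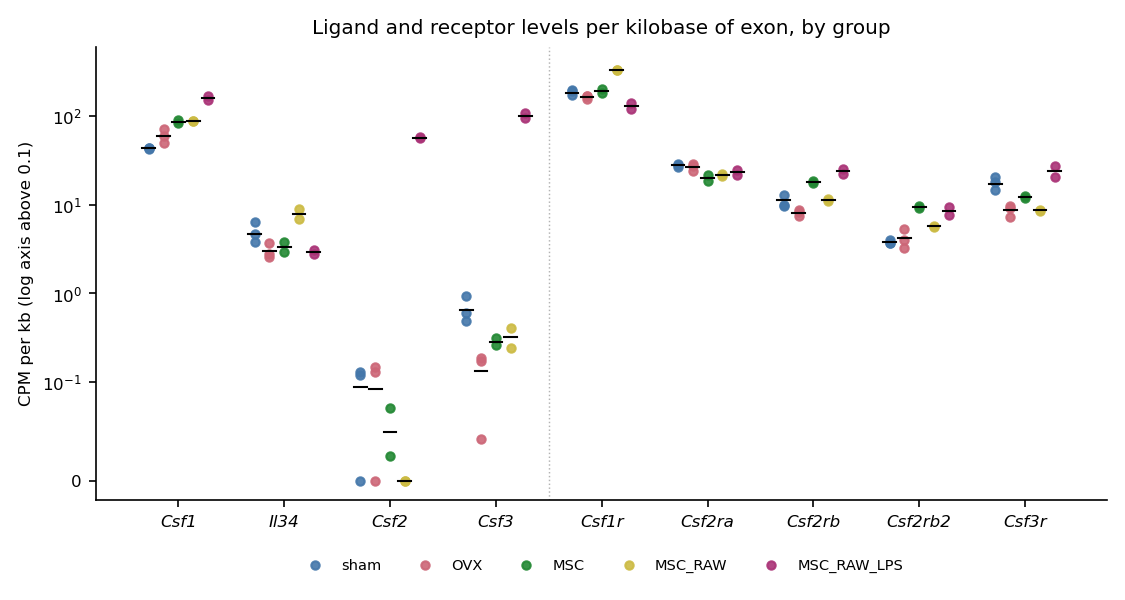
CPM per kb of exon of the 4 ligand and 5 receptor genes in all 12 libraries, on an axis that is logarithmic above 0.1. Points are libraries and bars are group means. Csf2 and Csf3 lie at or under 0.926 CPM per kb everywhere but in MSC_RAW_LPS, where both exceed 56.

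Each comparison was fitted over all genes with edgeR, and a gene is called when the fold change is at least 2 and the adjusted p at most 0.05. OVX against sham gave 0 calls among the 8 CSF genes tested, while 5.39% of the 16768 genes tested were called higher and 3.08% lower. Csf3r alone had an adjusted p at or under 0.05 there, 3 of the 8 had an unadjusted p under 0.05, and DESeq2 called 1 of them, Csf3. MSC_RAW against MSC gave 1 call among 9, Il34, which was higher (6.80% of 20499 genes were called higher and 9.59% lower). MSC_RAW_LPS against MSC gave 2 calls, Csf2 and Csf3, both higher (background 5.85% higher and 5.09% lower). MSC_RAW_LPS against MSC_RAW gave 6 calls, of which Csf2, Csf3, Csf3r and Csf2rb were higher and Csf1r and Il34 lower (background 15.4% higher and 12% lower). Csf2 passed the filter on low counts in the MSC table only through the MSC_RAW_LPS libraries, so it had to differ. These MSC comparisons share libraries, and their values stand side by side below. The median log2 fold change of all genes was -0.13 for MSC_RAW against MSC and 0.14 for MSC_RAW_LPS against MSC_RAW, so small differences in these comparisons are relative to that shift.

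**Figure D3:**
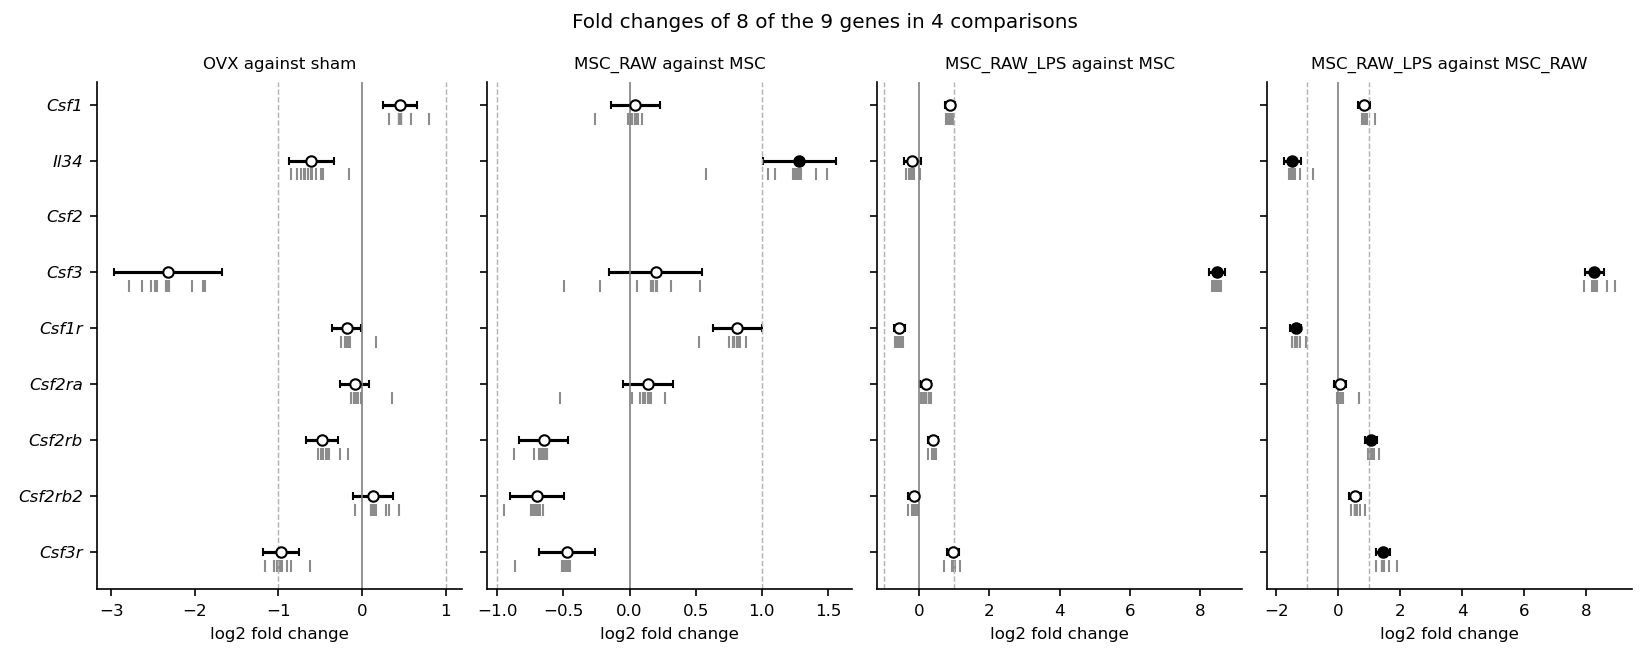
Log2 fold changes of 8 of the 9 genes in 4 comparisons, as points with standard errors, filled where the gene was called. Grey ticks are the values under the alternative settings and dashed lines mark a fold of 2. Csf2 is left out because it is at or near 0 counts outside MSC_RAW_LPS. Csf3 lies beyond 8 in both comparisons of MSC_RAW_LPS.

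Csf1 encodes M-CSF and had the highest level per kb of the 4 ligands in every group. The gene (ENSMUSG00000014599) lies on the minus strand of GRCm38 at chr3:107741048-107760469. Its level was 227, 229 and 233 CPM in sham replicates 1 to 3 and 259, 315 and 375 CPM in OVX replicates 1 to 3. Every OVX library was above every sham library, but the OVX libraries were spread widely, and the difference of 1.37-fold did not pass the test (log2 fold change 0.46, SE 0.21, adjusted p = 0.18). After removal of the trends of counts with GC content and length, the log2 fold change was 0.80 (adjusted p = 0.0322), still under a fold of 2. The MSC libraries held 439 and 471 CPM, and the MSC_RAW libraries 459 and 461, which overlapped with them (log2 fold change 0.04, 95% interval -0.35 to 0.43).

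In the MSC_RAW_LPS libraries Csf1 reached 884 and 798 CPM, above all other MSC libraries. This was 1.84-fold above MSC (log2 fold change 0.88, SE 0.15, adjusted p = 0.000469) and 1.79-fold above MSC_RAW (0.84, SE 0.19, adjusted p = 0.00252). Neither difference reached a fold of 2, so neither was called, and removing the GC and length trends raised the second to 1.19, past the limit. The 15 stromal markers summed to 2776 to 2921 CPM in MSC, 2205 to 2214 in MSC_RAW and 4245 to 4289 in MSC_RAW_LPS, where 4 of them were called higher against MSC and 8 higher and 1 lower against MSC_RAW. Their part in the Csf1 difference was not tested.

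The Csf1 promoter of RefSeq (GRCm38.p6, chr3:107760420-107760719, minus strand), which covers the start of the counted gene, is shown because Csf1 is the ligand that combines a high resting level with a higher value beside LPS-stimulated cells. Capitals mark a match to the NF-kB motif, searched by name on both strands, at -154 to -145 from the start site. Such a match was present in 4.51% of 32851 promoters of this length.
Csf1 promoter: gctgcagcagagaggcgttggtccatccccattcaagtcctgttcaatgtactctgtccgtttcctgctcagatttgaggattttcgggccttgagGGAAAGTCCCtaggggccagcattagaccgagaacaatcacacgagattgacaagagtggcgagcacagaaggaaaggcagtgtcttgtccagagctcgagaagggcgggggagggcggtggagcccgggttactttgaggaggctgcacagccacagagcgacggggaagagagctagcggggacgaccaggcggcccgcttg
The same window held no match to AP-1 (TGANTCA), C/EBP (TTNNGNAA), the PU.1 core (GAGGAA) or TATAAA, which 7.81%, 40.7%, 28.3% and 13.6% of promoters hold. RefSeq windows of 4 other members were searched, and Csf3 was not among them. The RefSeq start sites of Csf2 and Csf3r lie 232 and 109 bases from the counted start. The Csf2 window (chr11:54249850-54250149) lies wholly upstream of the counted gene. A missing match there therefore says nothing about the bases next to the counted start. None of the 4 held the NF-kB motif, and the PU.1 core was present in those of Csf2ra, Csf2rb2 and Csf3r. A match describes letters and is not a site of binding.

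Il34 encodes the other ligand of CSF1R (ENSMUSG00000031750, chr8:110741829-110805924, minus strand). It was read at low levels, 7.37, 12.6 and 9.16 CPM in sham and 5.51, 7.35 and 5.004 CPM in OVX, with the lowest sham library just above the highest OVX library. That difference did not pass the test (log2 fold change -0.61, SE 0.27, adjusted p = 0.178). The MSC libraries held 7.49 and 5.69 CPM, the MSC_RAW libraries 17.6 and 13.6, and the MSC_RAW_LPS libraries 5.43 and 6.12.

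Il34 thus rose 2.43-fold in MSC_RAW over MSC (log2 fold change 1.28, SE 0.28, adjusted p = 0.0032) and fell 2.79-fold from MSC_RAW to MSC_RAW_LPS (-1.48, SE 0.28, adjusted p = 0.000587). MSC and MSC_RAW_LPS overlapped (-0.20, 95% interval -0.71 to 0.32). Both calls were lost when the trends on GC content and length were removed, with log2 fold changes of 0.58 (adjusted p = 0.136) and -0.81 (adjusted p = 0.0308). Per kb, Csf1 exceeded Il34 by 9.31 times in sham, 19.7 in OVX, 25.6 in MSC, 10.9 in MSC_RAW and 54.0 in MSC_RAW_LPS.

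**Figure D4:**
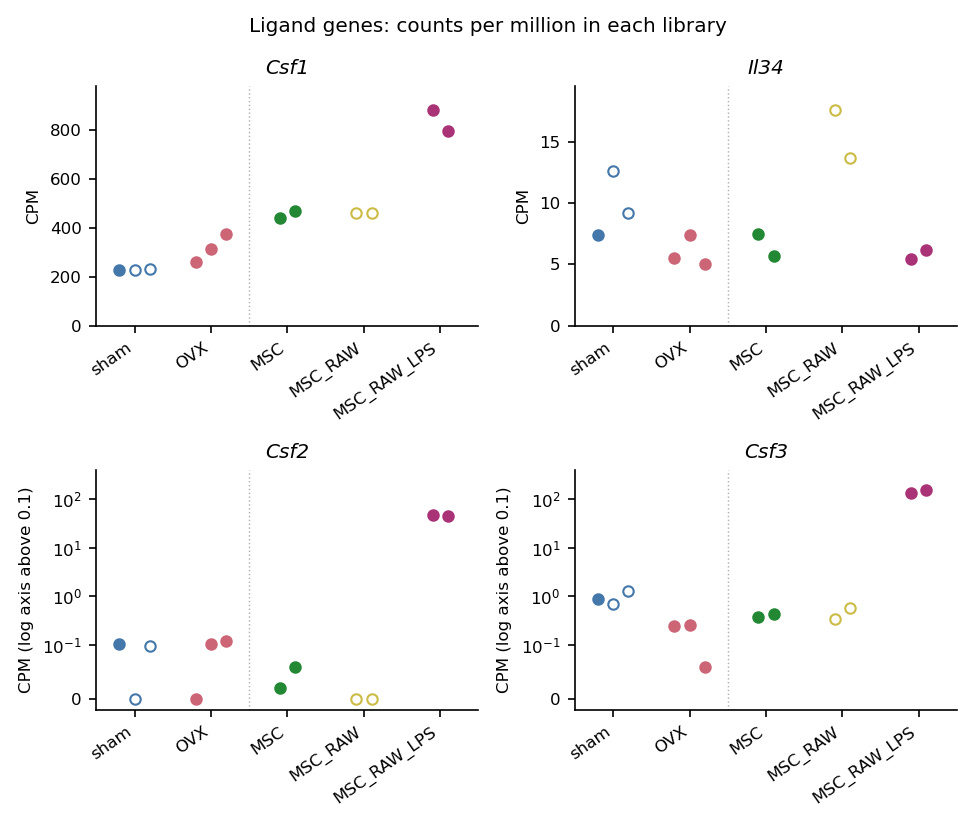
CPM of the 4 ligand genes in each library, by group, with open points for the near-identical pairs. The Csf2 and Csf3 axes are logarithmic above 0.1 CPM. Csf2 and Csf3 are high in the 2 MSC_RAW_LPS libraries, at 45.2 to 152 CPM, and under 1.4 CPM in the other 10.

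Csf2 and Csf3 were near the floor in every group but MSC_RAW_LPS. Both mRNAs are known for AU-rich elements in their 3′ untranslated regions, at which proteins such as TTP (Zfp36) start mRNA decay. The densest stretch of each is shown because the 2 genes with the largest differences among the 9 share this feature, with the pentamer ATTTA in capitals. The Csf2 stretch is chr11:54247329-54247358 on the minus strand and the Csf3 stretch chr11:98702984-98703013 on the plus strand, both of GRCm38.
Csf2: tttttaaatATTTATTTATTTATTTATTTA
Csf3: gatagtttATTTAtctctATTTAatATTTA
The 317 bases of the Csf2 3′ region held 9 pentamers, or 28.4 per kb, a density above that of 99.96% of 19794 genes with a 3′ region of at least 100 bases. Csf3 had 6 in 669 bases (8.97 per kb, above 98.8% of genes), while the median gene had 1.35 per kb and 68.2% of genes had at least 1. Csf1, Il34 and Csf1r lay near that median at 1.65 to 1.90 per kb. Csf2ra, Csf2rb, Csf2rb2 and Csf3r had 0.

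Csf2 (ENSMUSG00000018916, chr11:54247271-54249667, minus strand) encodes GM-CSF. It had 4, 0 and 2 counts in sham and 0, 4 and 4 in OVX, at most 0.118 CPM, and was not tested there. MSC held 1 and 2 counts and MSC_RAW 0 and 0. The MSC_RAW_LPS libraries held 1545 and 1417 counts, or 46.3 and 45.2 CPM. Against MSC the ratio was 1268 (2962 against 3 counts, 95% interval 433 to 6152, which covers counting error only and takes each count as independent). Against MSC_RAW, whose 0 counts allow up to 3 counts over the group or 0.0397 CPM, Csf2 was at least 1155-fold higher if each count is a separate fragment. Even values made up 60.0% to 71.4% of counts between 1 and 20, and the sources used here do not say whether both mates of a pair were counted. If they were, with 2 counts for each fragment, the floor would be 0.0793 CPM and the bound 577-fold, and the interval against MSC would be wider.

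Csf3 (ENSMUSG00000038067, chr11:98701263-98703629, plus strand) encodes G-CSF. MSC held 18 and 15 counts (0.367 and 0.440 CPM), MSC_RAW 14 and 20 (0.342 and 0.575 CPM), and MSC_RAW_LPS 4467 and 4766 (134 and 152 CPM). Csf3 therefore rose 356-fold over MSC (log2 fold change 8.47, SE 0.24, adjusted p = 1.9e-12) and 310-fold over MSC_RAW (8.27, SE 0.31, adjusted p = 1.13e-10), and both calls held under all 14 alternatives. The log2 fold change over MSC_RAW was 7.94 without MSC_RAW library a, 8.70 without library b, and 8.95 with the GC and length trends removed. MSC and MSC_RAW overlapped. In MSC_RAW_LPS the Csf3 level per kb was 1.77 times that of Csf2 and 0.635 times that of Csf1, while in MSC the second ratio was 0.00332.

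In BMMs, Csf3 was lower after OVX. The sham libraries held 33, 11 and 27 counts (0.859, 0.696 and 1.31 CPM) and the OVX libraries 8, 10 and 2 (0.244, 0.261 and 0.0592 CPM), with no overlap. The difference was 4.99-fold (log2 fold change -2.32, SE 0.65) and narrowly missed the threshold (adjusted p = 0.0511). It passed in 6 of 14 alternatives, among them DESeq2 (-2.35, adjusted p = 0.0176) and the fit without sham replicate 2 (-2.48, adjusted p = 0.0475). Every library separate with the replicate number as a block also passed (-2.33, adjusted p = 0.0253), but counts the near-identical sham pair as separate samples. It did not pass without OVX replicate 1, 2 or 3 (adjusted p 0.108, 0.117 and 0.0902) or sham replicate 3 (-2.03, adjusted p = 0.0986). Nor did it pass with the GC and length trends removed (-1.87, adjusted p = 0.132). Over all alternatives the log2 fold change lay between -2.79 and -1.87.

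Csf1r (ENSMUSG00000024621, chr18:61100598-61132149, plus strand) encodes the receptor of CSF1 and IL-34 and marks the macrophage lineage. Among genes with any count it was above 98.5% to 99.2% of them per kb in each group. Sham held 1003, 1127 and 1109 CPM and OVX 895, 965 and 959 CPM. The OVX libraries were all lower, by 1.14-fold, and the difference did not pass the test (log2 fold change -0.18, 95% interval -0.57 to 0.20), with its sign turned to 0.17 once the GC and length trends were removed.

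The 2 MSC libraries held 1160 and 1060 CPM of Csf1r, the MSC_RAW libraries 1926 and 1907, and the MSC_RAW_LPS libraries 694 and 820, with no overlap between groups. Csf1r fell 2.59-fold from MSC_RAW to MSC_RAW_LPS (log2 fold change -1.37, SE 0.18, adjusted p = 3.33e-05), a call that held under all 14 alternatives (-1.49 to -1.04). The 1.76-fold excess of MSC_RAW over MSC (0.82, SE 0.19, adjusted p = 0.00454) and the 1.47-fold deficit of MSC_RAW_LPS against MSC (-0.56, SE 0.16, adjusted p = 0.0177) stayed under a fold of 2. The first had an adjusted p of 0.102 without MSC replicate 2, and the second 0.307 and 0.144 without MSC replicate 1 and 2. The summed macrophage markers were also highest in MSC_RAW and lowest in MSC_RAW_LPS, but single markers went both ways. From MSC to MSC_RAW the sum was carried by Lyz2 (21643 and 26460 CPM), C1qa and C1qb, of which the last 2 rose, while Cd53 fell, the mean was lower in MSC_RAW for 9 of the 16 markers and the median log2 fold change was -0.40. From MSC_RAW to MSC_RAW_LPS 6 of the 16 fell, among them Cd68 and C1qa, and 4 rose, among them Adgre1.

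The ratio of receptor to ligand, Csf1r to Csf1 per kb, was 4.24 in sham (4.04 to 4.51 over libraries) and 2.72 in OVX (2.34 to 3.16). It was 2.23 in MSC, 3.81 in MSC_RAW and 0.823 in MSC_RAW_LPS (0.718 to 0.940). MSC_RAW_LPS was the only group in which the ligand transcript exceeded its receptor transcript per kb.

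**Figure D5:**
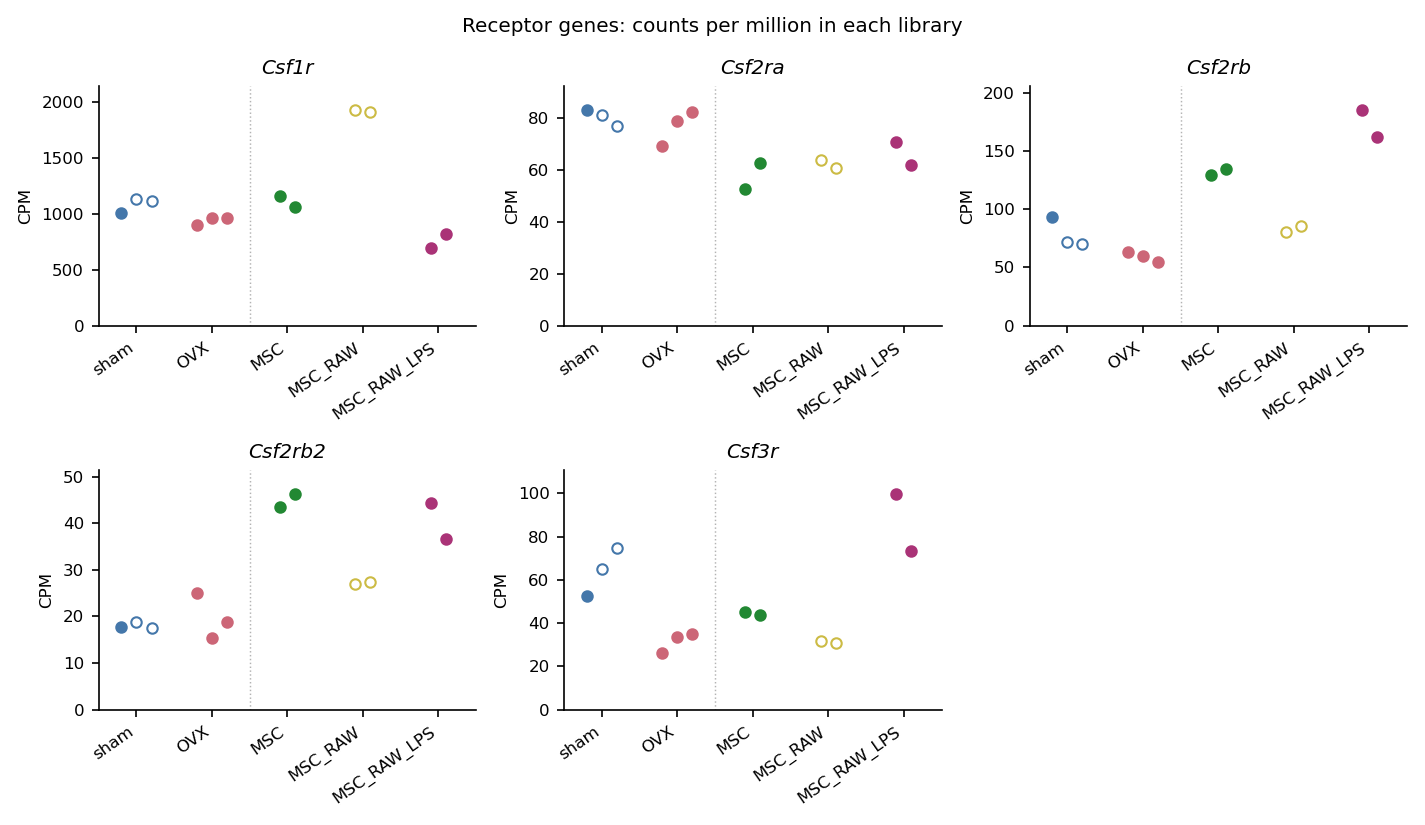
CPM of the 5 receptor genes in each library, by group, on linear axes from 0, with open points for the near-identical pairs. Csf1r is highest in MSC_RAW, at 1907 and 1926 CPM, where Csf2rb, Csf2rb2 and Csf3r are below MSC.

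Csf2ra (ENSMUSG00000059326, chr19:61223957-61228429, minus strand) encodes the specific chain of the GM-CSF receptor. It ranged from 77.1 to 83.3 CPM in sham, 69.3 to 82.5 in OVX, 52.8 to 62.9 in MSC, 60.8 to 64.0 in MSC_RAW and 61.9 to 70.8 in MSC_RAW_LPS. Groups overlapped in all 4 comparisons, with log2 fold changes of -0.09 (95% interval -0.49 to 0.31), 0.14, 0.19 and 0.06. Removing the GC and length trends gave 0.36 for OVX against sham and -0.52 for MSC_RAW against MSC, and 0.68 for MSC_RAW_LPS against MSC_RAW with an adjusted p of 0.0197, all under a fold of 2 and not called.

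Csf2rb (ENSMUSG00000071713, chr15:78325752-78353847, plus strand) is the shared signaling chain. OVX held 62.8, 59.7 and 54.7 CPM against 92.9, 71.6 and 70.1 in sham, all lower but not past the threshold (log2 fold change -0.48, SE 0.19, adjusted p = 0.132). The MSC libraries held 129 and 134 CPM, MSC_RAW 80.1 and 85.2, and MSC_RAW_LPS 185 and 162, with no overlap. Csf2rb rose 2.06-fold from MSC_RAW to MSC_RAW_LPS (1.05, SE 0.19, adjusted p = 0.000487), which without MSC_RAW_LPS library 2 came to 0.96 and was no longer called. MSC_RAW was 1.57-fold below MSC (-0.65, SE 0.19, adjusted p = 0.0177), under a fold of 2, with adjusted p of 0.0819 and 0.123 without MSC replicate 1 and 2. MSC_RAW_LPS against MSC did not pass (0.40, adjusted p = 0.0764).

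Csf2rb2 (ENSMUSG00000071714, chr15:78282507-78305721, minus strand) is its neighboring copy. The coding sequences of both are 95.2% identical over 2631 aligned bases, and 7.20% of 100-base and 3.59% of 150-base windows of the Csf2rb2 transcript occur unchanged in Csf2rb. Counts of this pair are therefore uncertain where reads could be assigned to either. Csf2rb2 had 17.7, 18.9 and 17.6 CPM in sham and 25.1, 15.4 and 18.8 in OVX, which overlapped. It had 43.5 and 46.3 CPM in MSC, 26.9 and 27.4 in MSC_RAW, and 44.3 and 36.6 in MSC_RAW_LPS. The 1.62-fold deficit in MSC_RAW against MSC (log2 fold change -0.70, SE 0.20, adjusted p = 0.0183) and the 1.46-fold excess of MSC_RAW_LPS over MSC_RAW (0.55, adjusted p = 0.042) were under a fold of 2. Leaving out MSC replicate 2 moved their adjusted p to 0.0944 and 0.0713, and the second was also above 0.05 without MSC replicate 1 (0.0697) or MSC_RAW_LPS library 2 (0.0891). The Csf2rb to Csf2rb2 ratio per kb was 2.96 in sham and 1.95 in OVX, and 1.91, 1.98 and 2.80 in MSC, MSC_RAW and MSC_RAW_LPS.

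Csf3r (ENSMUSG00000028859, chr4:126024550-126044440, plus strand) encodes the G-CSF receptor. It was lower in all OVX libraries, at 26.2, 33.5 and 34.9 CPM against 52.4, 64.9 and 74.6 in sham. The difference of 1.96-fold was just under the limit of 2 with an adjusted p past the threshold (log2 fold change -0.97, SE 0.21, adjusted p = 0.0234), and 5 of 14 alternatives called it, including every library separate (-1.02, adjusted p = 0.00558). Its adjusted p was 0.0762 without OVX replicate 1 (-0.85) and 0.0968 without OVX replicate 2 (-1.01), and the gene was called without OVX replicate 3 (-1.05), sham replicate 1 (-1.17) or sham replicate 2 (-1.01). With GC and length trends removed it came to -0.63 (adjusted p = 0.0635).

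The 12 neutrophil and granulocyte progenitor markers gave 0 calls by edgeR in OVX against sham (5 with an unadjusted p under 0.05, and 1 call by DESeq2), and their sum was higher in OVX (1220 to 1352 CPM) than in sham (831 to 966). The sum is mostly S100a8 and S100a9. The mean was higher in OVX for 7 of the 12 markers and lower, as for Csf3r, for 5, among them Mpo (11.2 CPM in sham and 5.76 in OVX) and Elane (9.51 and 6.36). Of the 7 osteoclast markers 6 were tested and 3 were called lower in OVX, with sums over the 7 of 336 to 345 CPM against 648 to 783. The part of other cell types in the Csf3r difference was not tested.

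Among the MSC groups, Csf3r had 45.1 and 43.6 CPM in MSC, 31.6 and 31.0 in MSC_RAW, and 99.7 and 73.4 in MSC_RAW_LPS. It rose 2.71-fold from MSC_RAW to MSC_RAW_LPS (log2 fold change 1.44, SE 0.22, adjusted p = 0.000112) under all 14 alternatives (1.21 to 1.89). Against MSC the rise of 1.95-fold (0.96, SE 0.17, adjusted p = 0.000607) stopped short of the limit, and it was 1.17 and called without MSC_RAW_LPS library 3, 0.70 without library 2, and 1.02 and called with the GC and length trends removed. MSC_RAW against MSC did not pass (-0.47, adjusted p = 0.104). Neutrophil markers summed to 18.3 to 23.5 CPM in MSC, 38.5 to 41.8 in MSC_RAW and 402 to 583 in MSC_RAW_LPS, where S100a8 made up 341 to 517 CPM. Of the 12 neutrophil markers 4 were tested in these groups, and S100a8, Mmp8 and Camp rose in MSC_RAW_LPS against both MSC and MSC_RAW. Camp had a mean of 0.592 CPM in MSC and 34.2 in MSC_RAW_LPS, and Mmp8 6.69 and 29.5. In MSC_RAW_LPS, Elane, Ltf, Retnlg and Cxcr2 were at 0, and Mpo, Ly6g and S100a9 at no more than 0.06 CPM. The part of these markers in the Csf3r difference was not tested.

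Genes that signal for GM-CSF and G-CSF receptors, the JAK kinases, STAT factors and their feedback inhibitors, were all tested (15). OVX against sham had 6 called lower and 0 higher, with a list median log2 fold change of -0.79 (all genes -0.01). Socs3, the feedback inhibitor of G-CSF receptor signaling, fell from 228 to 234 CPM in sham to 60.4 to 98.6 CPM in OVX (-1.55, adjusted p = 0.00798), and Pim1, a kinase gene induced by STAT5, by 1.23 on the log2 scale (adjusted p = 0.02). Cish, an inhibitor induced by STAT5, fell by 1.54 at 0.447 CPM in OVX (adjusted p = 0.0493). Without OVX replicate 2 only 1 of the 6 genes remained called, with Socs3 at -1.54 (adjusted p = 0.0531) and Pim1 at -1.27 (adjusted p = 0.0852), and Cish was lost without any 1 of the 6 libraries (adjusted p 0.0559 to 0.149). With the GC and length trends removed 3 of the 6 were called, Socs3 among them (-1.09), but not Pim1 (-0.83) or Cish (-1.25).

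The same list had 1 lower call in MSC_RAW against MSC, Lyn, a Src-family kinase of the GM-CSF receptor (-1.32, adjusted p = 0.00066). MSC_RAW_LPS had 4 higher and 0 lower against MSC, and also 4 higher and 0 lower against MSC_RAW. Of all genes tested, 5.85% were called higher and 5.09% lower against MSC, and 15.4% higher and 12% lower against MSC_RAW. Whether the calls in this list, the other lists or the marker sets exceed such shares was not tested. Socs3 rose from 24.5 to 25.8 CPM in MSC to 415 to 423 CPM (4.06, adjusted p = 9.23e-11), Socs1 from 10.4 to 13.4 to 123 to 128 CPM (3.40), and Jak2, the kinase on the shared receptor chain, from 43.1 to 47.8 to 387 to 418 CPM (3.14). Against MSC_RAW the same 3 rose by 3.30, 3.34 and 3.53, and Lyn by 1.48 (adjusted p = 8.42e-05).

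Genes acting next to CSF1R were also tested in full (18), with 3 lower calls after OVX and 0 higher (median -0.56). They were Dok2 and Dok3, adaptors that restrain kinase signaling, and Pik3cd, a PI3-kinase subunit of white blood cells, with log2 fold changes of -1.18, -1.14 and -1.16. Without OVX replicate 1 only 1 of them was called, with Dok2 at -1.08 and Dok3 at -0.96, and without OVX replicate 2 none was, with -1.25, -1.26 and -1.12. With the GC and length trends removed none of the 3 was called either (Dok2 -0.72, Dok3 -0.66 and Pik3cd -0.72). MSC_RAW against MSC had 3 higher and 2 lower. Tyrobp (DAP12), an adaptor of macrophages and osteoclasts, went from 628 to 676 CPM to 2009 to 2052 CPM (1.67, adjusted p = 0.00013), Dok2 rose by 1.53 and Dok3 by 1.40, and Grb10 fell by 1.28. With the GC and length trends removed these 3 higher genes were no longer called (0.97, 0.88 and 0.64). MSC_RAW_LPS against MSC_RAW had 2 higher and 4 lower, among them Dok2 (-2.71), Tyrobp (-2.18) and Fes (-1.37), while Cbl, the ubiquitin ligase that removes active CSF1R, rose by 1.35. With those trends removed Fes (-0.96) and Cbl (0.95) were under the limit, and Dok2 and Tyrobp came to -2.12 and -1.44. Against MSC only Dok2 was called (-1.18). Csf1r had the same direction as Tyrobp and Dok2 in these MSC comparisons.

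Of 15 transcription factors of myeloid cells, OVX against sham had 1 higher and 3 lower. Spi1 (PU.1), which acts at the promoters of Csf1r, Csf2ra and Csf3r, fell from 595 to 790 CPM to 211 to 281 CPM (-1.46, adjusted p = 0.00771, and -0.99 and not called with the GC and length trends removed), Cebpd by 1.19 and Ets2 by 1.13, and Egr2 rose by 1.23. Without OVX replicate 1 this count was 2 of 15, with Egr2 at 1.12 and Ets2 at -1.13 lost, and without OVX replicate 2 it was 1, with Cebpd at -1.28, Egr2 at 1.23 and Ets2 at -1.15 lost. Ets2 was also lost without sham replicate 1 (-0.85), and Cebpd (-0.98) and Ets2 (-0.88) with the trends removed. MSC_RAW against MSC had 2 higher, Spi1 (1.10) and Egr1 (1.09, but 0.68 and not called without MSC replicate 1), and neither was called with the GC and length trends removed (0.38 and 0.58). MSC_RAW_LPS against MSC had Cebpb higher (1.88) and Cebpa lower (-2.11, from 67.2 to 99.8 CPM to 17.5 to 21.2 CPM), with Cebpe listed at 0 counts in MSC_RAW_LPS and at 0.352 to 0.592 CPM in MSC. Cebpe passed the filter only through the MSC libraries and had to differ, and its call was lost without MSC replicate 2 or either MSC_RAW_LPS library (adjusted p 0.112, 0.0707 and 0.0811). Against MSC_RAW, Cebpa alone was called in the list (-2.67, and -1.94 with the trends removed). The count of the list was not the same without MSC_RAW library a or MSC_RAW_LPS library 2.

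Related cytokines and receptors were partly silent. Il3 had 0 counts in all 12 libraries, and Il3, Il5, Il5ra, Flt3 and Epo were too low to test in both tables, so 10 of 16 genes were tested in each. Kitl, the ligand of Kit, rose from 4.46 to 5.88 CPM in sham to 14.7 to 22.8 CPM in OVX (1.77, adjusted p = 0.00798), a call lost with the GC and length trends removed (0.95). Ptprz1, a receptor for IL-34, was higher (2.21) and Il3ra lower (-1.04) after OVX, and both were lost without OVX replicate 1 (1.83 and -0.85), 2 (2.37 and -1.26) or 3 (2.38 and -1.02), and Ptprz1 also without sham replicate 2 (2.49) or 3 (1.76). Neither was called with the trends removed (1.73 and -0.55). MSC_RAW_LPS had Lif at 200 to 228 CPM against 4.63 to 5.40 CPM in MSC (5.42, adjusted p = 1.89e-11) and Il11 at 37.7 to 38.4 against 1.63 to 4.08 CPM (3.76), both members of the IL-6 family. The Il11 value ran from 3.22 to 4.54 over the alternatives. Sdc1, a proteoglycan that binds IL-34, rose (1.51) and Kitl fell (-1.72) in that comparison. Against MSC_RAW, Lif and Il11 rose by 5.02 and 4.33, and Kitl (-1.20) and Il3ra (-1.05) fell. Kitl was -0.92 without MSC_RAW_LPS library 3 and Il3ra -0.99 without MSC_RAW library a, both under a fold of 2. With the trends removed Kitl came to -2.04 and Il3ra to -0.39. MSC_RAW against MSC had 2 higher, Il3ra (1.39) and Sdc1 (1.15), and neither was called with the GC and length trends removed (0.62 and 0.70).

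In a list of 9 genes for CSF responses and partner factors of CSFs, 0 were called by edgeR in OVX against sham. Of these, 3 had an unadjusted p under 0.05, DESeq2 called 1, and the count also differed from 0 without sham replicate 1. Whether CSFs brought about differences in this list was not tested. MSC_RAW_LPS against MSC had 3 higher and 3 lower. Tnfsf11 (RANKL), the osteoclast factor that works together with CSF1, was at 14.8 to 17.8 CPM against 0.429 to 1.61 CPM (4.05, adjusted p = 3.11e-06). Its log2 fold change ran from 3.33 to 5.24 over the alternatives. Ccl17 rose by 3.13 and Pparg, a factor that GM-CSF induces in lung macrophages, fell by 1.54, from 18.2 to 18.8 CPM to 5.77 to 6.96 CPM. Ccl22 was listed at 0 in MSC and at 0.383 to 0.60 CPM in MSC_RAW_LPS, so it passed the filter on low counts only through the group where it is high and had to differ. It is 1 of the 3 higher calls, and was not called without MSC replicate 1 or 2 (adjusted p 0.219 and 0.201). Against MSC_RAW, 3 were higher and 1 lower, with Tnfsf11 at 3.47, Ccl17 at 1.66, Myc at 1.18 and Pparg at -1.73. Ccl17 was the single call in MSC_RAW against MSC (1.47, adjusted p = 0.0397) and was lost without MSC replicate 1 (1.32), MSC replicate 2 (1.61) or MSC_RAW library b (1.24), and with the trends removed (0.94). It was also lost with DESeq2 and with these 2 groups fitted alone.

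The 11 genes for proteins that bind AU-rich elements or degrade such mRNAs had 2 higher and 1 lower calls both after OVX and in MSC_RAW_LPS against MSC. Zc3h12a (regnase-1), an endonuclease of cytokine mRNAs, fell from 98.9 to 141 CPM in sham to 26.7 to 40.2 CPM in OVX (-1.79, adjusted p = 0.00668) and rose from 26.2 to 30.8 CPM in MSC to 187 to 203 CPM in MSC_RAW_LPS (2.77, adjusted p = 5.34e-09), both under all 14 alternatives. Tia1 (1.35) and the roquin gene Rc3h2 (1.07) rose after OVX. With the GC and length trends removed they came to 0.56 and 0.03 and were not called. Without OVX replicate 2 their folds were as large (1.39 and 1.19) but did not pass (adjusted p = 0.0542 and 0.0746), which left 1 of the 3 calls, and Rc3h2 was also lost without OVX replicate 1 (0.86). Zfp36 itself rose by 1.06 over MSC, from 43.1 to 52.5 CPM to 98.5 to 101 CPM, or by 0.92 and not called without MSC replicate 1, and Zfp36l2 fell by 1.30. Rc3h1 and Rc3h2 fell in MSC_RAW against MSC (-1.23 and -1.06), calls that were lost with those trends removed (-0.51 and -0.13). Zc3h12a rose by 1.90 and Rc3h1 by 1.03 from MSC_RAW to MSC_RAW_LPS, and Rc3h1 was 0.85 without MSC_RAW_LPS library 2 and 0.19 with the trends removed. Of 4 genes for the shedding of CSF1 and CSF1R from the cell surface, edgeR called Rhbdf2 in that comparison (1.01), just past the limit. It was 0.99 without MSC_RAW library a and 0.95 without MSC_RAW_LPS library 2, and was also not called with RLE scaling, DESeq2 or counts halved. The other comparisons gave 0 calls in that list, with 2, 1 and 1 genes at an unadjusted p under 0.05, and 1 call in OVX against sham without sham replicate 1.

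The genes most like Csf1r, Csf1, Csf2ra and Csf3, the 4 members with the highest mean per kb over all 12 libraries (for Csf3 through the MSC_RAW_LPS libraries alone), were taken by the root mean square difference over 3 log2 fold changes (OVX against sham, MSC_RAW against MSC and MSC_RAW_LPS against MSC) among 9723 genes. For Csf1r they were Parp1, Pomk and Nmral1 (0.03 to 0.05), for Csf1 Robo1, Arcn1 and Crim1 (0.09 to 0.11), and for Csf2ra 1700047I17Rik2, Faf2 and Zmynd8 (0.02 to 0.03). Csf3 had no close match among them, and the nearest were Il1b (1.05), Mmp3 (1.34) and Lcn2 (1.72). The 9723 genes all had a mean of at least 5 CPM in each table. Csf3 itself was below that in BMMs, so genes as low there as Csf3 were not searched. Il1b, the gene of interleukin-1 beta, had log2 fold changes of -0.53, 0.36 and 8.71 against -2.32, 0.20 and 8.47 for Csf3.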

How the data were processed

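Poly(A)-selected, strand-marked libraries were made and sequenced as read pairs on a NovaSeq. Per the submitters' processing notes and the study's methods, reads were trimmed with Trim Galore 0.6.7, aligned to GRCm38 with HISAT2 2.1.0 and counted per gene with featureCounts 2.0.1. The authors deposited these values as raw counts in 2 tables of 55487 genes, of which 55141 were named by GENCODE M21. Strand and pair settings of the counting are not given in the sources used here, and 60.0% to 71.4% of counts between 1 and 20 were even. The authors tested their counts with DESeq2.

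The 9 genes, the gene lists and the tests were chosen with earlier results of these data known. From the counts, edgeR 4.0.16 in R 4.3.3 (TMM scaling, filterByExpr, quasi-likelihood test, Benjamini-Hochberg adjustment over all genes tested) was fitted within each table, with the 3 MSC groups in 1 fit. Adjusted p-values in the text are from that test unless DESeq2 (1.42.0) is named. Near-identical libraries, those whose ratio of squared differences to Poisson sampling rose by less than a factor of 2 from genes with 20 to 100 counts to genes with 1000 or more, were summed. Named with values were all 9 genes and, per list and comparison, up to 4 called genes with the largest absolute log2 fold change. The values of 1 gene that this rule names are not reported here. Genes of like pattern had a mean of at least 5 CPM in each table. Scripts were tested on simulated data. Alternatives were RLE scaling, DESeq2, no filter, every library separate, the replicate number as a block, GC content and length trends removed (loess span 0.3), counts halved and each library left out. In the MSC experiment the 2 compared groups were also fitted alone. Intervals on counts are exact 95% and cover counting error only. Tables and figures used pandas 2.3.3, scipy 1.17.1 and matplotlib 3.10.9. Promoter sequences are from RefSeq.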

Additional observations from a re-analysis of the deposited data

How the results depend on the processing

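The number of genes called in OVX against sham was 1419 (63.6% higher), and 583 (40.3% higher) with the GC content and length trends removed. Leaving out 1 library at a time gave 309 to 2390, with 309 without OVX replicate 2, 678 without OVX replicate 1 and 2390 without sham replicate 1. Of the CSF genes 0 were called by edgeR there, 1 with DESeq2, no filter or counts halved, 2 with every library separate, 2 with the replicate block added, and 0 to 2 with 1 library left out. MSC_RAW against MSC had 3360 genes called (41.5% higher) and 2029 (35.7% higher) with the trends removed, when 0 of the CSF genes were called. The cause of these shifts was not tested. With the replicate number as a block and every library separate, OVX against sham had 2117 calls, against 1818 without the block. Deviations of same-numbered libraries correlated at 0.409, -0.0261 and 0.353, so the numbers were not taken to pair the libraries. For the MSC comparisons no block on replicate numbers was fitted, because the MSC_RAW columns carry no number and the MSC_RAW_LPS columns match their labels only by group, but a block on library codes was.

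Of 489 fold changes of the CSF genes under alternatives, 462 kept their direction and stayed called or not called. Another 14 became called, 3 lost their call and 10 changed sign, none of these 10 called. A fold change that stayed not called could still cross the adjusted p limit. In OVX against sham with the trends removed, Csf1 went from 0.18 to 0.0322 and Csf3r from 0.0234 to 0.0635. The sign changes with trends removed were Csf1r 0.17 and Csf2ra 0.36 in OVX against sham, and Csf1 -0.26, Csf3 -0.49 and Csf2ra -0.52 in MSC_RAW against MSC. With 1 library left out at a time, the values ran from -0.0785 (without OVX replicate 1) to 0.291 for Csf2rb2 in OVX against sham, from -0.00973 (without MSC replicate 1) to 0.0946 for Csf1 and from -0.22 (without MSC_RAW library b) to 0.53 for Csf3 in MSC_RAW against MSC, from -0.37 to 0.0185 (without MSC replicate 1) for Il34 in MSC_RAW_LPS against MSC, and from -0.0345 (without MSC_RAW_LPS library 2) to 0.157 for Csf2ra in MSC_RAW_LPS against MSC_RAW. Of 392 list counts, 345 stayed within 1.5 times. Ranking genes by CPM without division by length moved 19 of 45 ranks.

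Settings of 2 kinds were chosen after seeing the data, from the library codes in the headers. With only the libraries of code 0550, which leaves out OVX and sham replicate 2, OVX against sham had 199 calls, against 1419. The MSC libraries fall into 2 sets of codes with 1 library of each group, and with these sets as a block and every library separate, 4489 genes were called in MSC_RAW against MSC, 2383 in MSC_RAW_LPS against MSC and 6629 in MSC_RAW_LPS against MSC_RAW, against 4574, 2412 and 6718 without the block. That block moved no count of CSF genes called. Low counts limit Csf3 in the BMM, MSC and MSC_RAW libraries, at 2 to 33 counts each, and Csf2 there, at 0 to 4.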
